A study of Homo sapiens with 3 samples.

Results

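The genes described here are CTNNB1, which encodes beta-catenin, and 9 genes that act on it or respond to it. APC, AXIN1 and GSK3B belong to the complex that marks beta-catenin for degradation. AXIN2, NKD1, NOTUM, ZNRF3 and RNF43 are feedback genes, and MYC is a growth-promoting target gene. They were chosen by name, and 10 of the 60504 genes in the deposited table carry these symbols. A filter on low values kept 11675 genes, those for which the control level and the clone average together had a mean of 1 FPKM or more. It kept 9 of the 10 genes, all but NOTUM. FPKM counts the fragments of a gene per unit of its length and relative to the total sequenced.

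DLD1, a line grown from a human colorectal cancer, was profiled by RNA-Seq to ask how loss of BEX2 alters gene expression. DLD1 control cells, wild type for BEX2, gave 1 library, and each of 2 BEX2-/- DLD1 clones gave 1. The paper describes BEX2-/- DLD1 cells in which CRISPR/Cas9 had removed a few bases at the start of the BEX2 coding sequence. The titles read KO1 and KO2, called clone 1 and clone 2 here, and the paper does not say whether they are separate clones. The labels give no treatment or time point for any library. Each BEX2-/- library is treated here as 1 clone, so a property of the clone and an effect of the knockout cannot be told apart in a single clone.

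In the Wnt/beta-catenin pathway, the scaffolds APC and AXIN1 bring beta-catenin to the kinase GSK3B, and phosphorylated beta-catenin is degraded. When the complex is inactive, beta-catenin enters the nucleus, binds TCF/LEF factors and switches on target genes, several of which restrain the pathway again. The intestinal epithelium depends on this pathway for its stem cells, and most colorectal cancers, DLD1 among them, carry a truncated APC protein. All 3 groups of cells share that background. Levels of mRNA do not show how much beta-catenin protein was stable. The paper stated, without showing the data, that beta-catenin mRNA and protein did not obviously differ between DLD1 and BEX2-/- DLD1 cells. It said so of the protein in nucleus and cytoplasm alike, and it saw no activation of Wnt/beta-catenin signaling. Which BEX2-/- clone was measured is not given there.

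BEX2 was listed at 0 in all 3 libraries, the control included, so its mRNA gave no check of the labels. The paper described BEX2 protein as relatively high in DLD1 among colorectal cancer lines, and why the control had no reads was not tested. Depth, recovered from the steps between low FPKM values, ran from 35593995 reads in clone 1 to 47458857 in the control and 47722414 in clone 2. Of 8 colorectal epithelial markers, 7 passed the filter on low values, with summed levels of 1601, 1657 and 1855 FPKM in control, clone 1 and clone 2. Of these, VIL1, a microvillus protein, was at 3.61, 13.2 and 0.221 FPKM, the order opposite to that of CTNNB1. Of the 7 markers, 3 had this order, VIL1 included, 2 had that of CTNNB1 and 2 were above the control in both clones. The part of these markers in the results below was not tested. No fibroblast marker of 7 and no leukocyte marker of 6 passed the filter. Their summed levels lay between 0.162 and 0.645 FPKM and between 0.749 and 0.811 FPKM, and LUM, COL3A1, PTPRC and LYZ were among those listed at 0 in every library.

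CTNNB1 (ENSG00000168036, chromosome 3) was lower in clone 1 and higher in clone 2 than in DLD1 control cells. Its level was 41.5 FPKM in the control, 30.0 in clone 1 and 63.8 in clone 2. The control value lay between those of the clones, whose mean was 46.9 ± 23.9 FPKM (SD, n = 2). Clone 1 stood at 0.724 times the control (95% interval 0.708 to 0.739) and clone 2 at 1.54 times (1.51 to 1.56). Between the clones the fold was 2.12 (2.08 to 2.17). In such bulk libraries, fewer cells expressing a gene and less RNA per cell cannot be told apart. These intervals are exact binomial limits on recovered reads, they compare 2 libraries at a time and they cover counting error only. CTNNB1 was the only one of the 9 genes past the filter with a 2-fold or larger gap between the clones on the log2(FPKM + 1) scale, where 4.19% of all genes past the filter had one and 12.4% reached 1.5-fold.

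With both clones in 1 fit, the difference of CTNNB1 from the control was smaller than the spread between the clones. The mean log2 difference was 0.08 with a standard error of 0.516 (adjusted p = 1.00, limma). Clone 1 alone gave -0.45 and clone 2 alone 0.61. In this fit the single control library was assumed to vary like the clones.

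**Figure D1:**
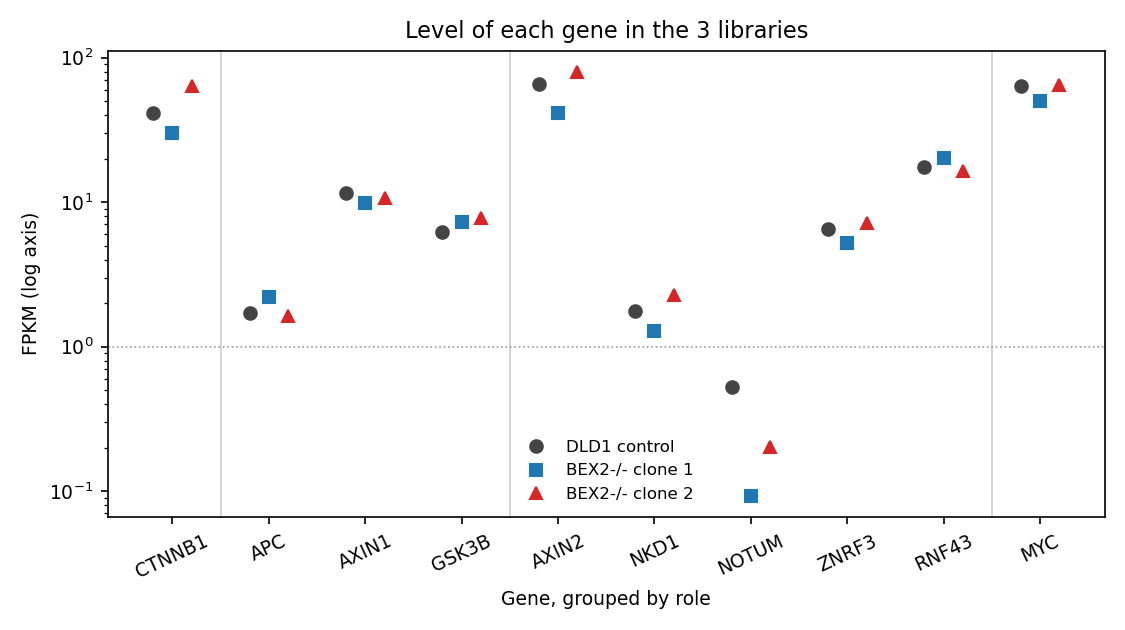
FPKM (log axis) of the 10 genes in DLD1 control cells (circles), BEX2-/- clone 1 (squares) and BEX2-/- clone 2 (triangles), 1 point per library, grouped as beta-catenin, destruction complex, feedback genes and MYC. CTNNB1, AXIN2, NKD1 and ZNRF3 have the square lowest and the triangle highest, whereas NOTUM lies under 1 FPKM (dotted line) in all 3 libraries.

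The destruction complex genes lay closer to the control than CTNNB1, and each in its own way. APC (ENSG00000134982, chromosome 5), the scaffold that is truncated in most colorectal cancers, was at 1.70 FPKM in control cells, 2.20 in clone 1 and 1.62 in clone 2. Clone 1 was thus 1.30 times the control (1.19 to 1.42), while the interval of clone 2 included 1 (0.956, 0.874 to 1.05). Its order across the libraries was the reverse of that of CTNNB1, except that scaling to TPM put clone 2 above the control by 0.01 on the log2 scale.

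AXIN1 (ENSG00000103126, chromosome 16), the scaffold that holds the complex together, was at 11.6 FPKM in control cells, with 9.93 in clone 1 and 10.6 in clone 2. The values of both clones lay below that of the control, at 0.853 times (0.812 to 0.896) and 0.907 times (0.868 to 0.948). GSK3B (ENSG00000082701, chromosome 3), the kinase, was at 6.23, 7.30 and 7.79 FPKM. The values of both clones lay above that of the control, at 1.17 times (1.10 to 1.24) and 1.25 times (1.18 to 1.32).

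For AXIN1 and GSK3B the control lay 3.14 and 3.79 SD of the clones away from their mean, yet neither passed the fit across all genes. The log2 difference was -0.17 ± 0.180 (SE) for AXIN1 and 0.24 ± 0.182 (SE) for GSK3B, each with an adjusted p of 1.00 in limma. Among all genes past the filter, the control was above both clones in 27.7% and below both in 32.4%. The median log2 difference of APC, AXIN1 and GSK3B from the control came to 0.20 in clone 1 and -0.04 in clone 2, beside 0.04 and -0.01 over all genes past the filter.

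Relative to every gene of the destruction complex, CTNNB1 mRNA was less abundant in clone 1 and more abundant in clone 2 than in control cells. Such ratios are taken within a library, so they do not change with the scaling between libraries. The ratio of CTNNB1 to APC in FPKM was 24.5 in control cells, 13.6 in clone 1 and 39.4 in clone 2, a difference of 2.89 times between the clones. The ratio to AXIN1 was 3.57, 3.03 and 6.05, and the ratio to GSK3B was 6.66, 4.12 and 8.19. The ratios to AXIN1 and GSK3B both differed by about 2.0 times between the clones.

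Against the feedback genes the ratio changed less for AXIN2 and NKD1. The ratio of CTNNB1 to AXIN2 was 0.628 in control cells, with 0.726 in clone 1 and 0.801 in clone 2, and that to NKD1 was 23.7, 23.5 and 28.0. The ratio to ZNRF3 was 6.37, 5.77 and 8.89. The ratio to RNF43 was 2.39, 1.49 and 3.91, a difference of 2.62 times between the clones. The ratio to NOTUM was 79.3 in control cells, 323 in clone 1 and 317 in clone 2, so it was about equal in the clones.

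**Figure D2:**
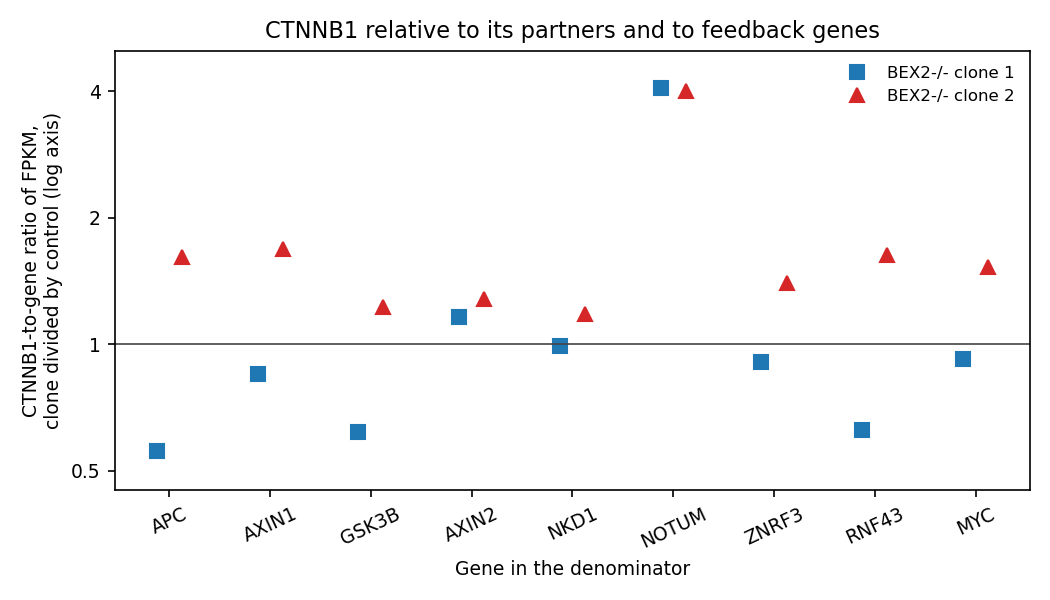
Ratio of CTNNB1 FPKM to the FPKM of the gene named on the horizontal axis, in each BEX2-/- clone divided by the same ratio in DLD1 control cells (log axis, 1 library per point). The clones lie on opposite sides of the line at 1 for APC, AXIN1, GSK3B, ZNRF3, RNF43 and MYC, and for NKD1 with clone 1 at 0.991, both above it for AXIN2, and near 4 in both for NOTUM.

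AXIN2, NKD1 and ZNRF3 shared the order of CTNNB1, whereas RNF43 had the reverse order and NOTUM was lower in both clones. AXIN2 (ENSG00000168646, chromosome 17), an AXIN1 relative switched on by beta-catenin, was at 66.1 FPKM in control cells, 41.4 in clone 1 and 79.6 in clone 2. It stood at 0.626 times the control in clone 1 (0.610 to 0.644) and at 1.21 times in clone 2 (1.18 to 1.23), a fold of 1.92 between the clones (1.87 to 1.98). On the log2(FPKM + 1) scale the clones differed by 0.93. At least 1.5-fold higher values in clone 2 than in clone 1 were found in 6.23% of all genes past the filter, and CTNNB1 and AXIN2 were among them. Another annotated gene on the same strand covers 25.2% of the merged exons of AXIN2, but it had at most 0.0130 FPKM in any library.

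AXIN2 and AXIN1 thus had different orders. Their ratio in FPKM was 5.68 in control cells, 4.17 in clone 1 and 7.54 in clone 2. NKD1 (ENSG00000140807, chromosome 16), which binds Dishevelled and restrains Wnt signaling, was at 1.75, 1.28 and 2.28 FPKM. Its folds were 0.731 in clone 1 (0.670 to 0.798) and 1.30 in clone 2 (1.21 to 1.39).

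ZNRF3 and RNF43 are related membrane ubiquitin ligases that remove Frizzled receptors from the cell surface. ZNRF3 (ENSG00000183579, chromosome 22) was at 6.52 FPKM in control cells, 5.21 in clone 1 and 7.18 in clone 2. RNF43 (ENSG00000108375, chromosome 17) was at 17.4, 20.1 and 16.3 FPKM. In clone 1 ZNRF3 was 0.799 times the control (0.745 to 0.856) and RNF43 1.16 times (1.12 to 1.20). In clone 2 ZNRF3 was 1.10 times (1.04 to 1.17) and RNF43 0.941 times (0.907 to 0.975). The paralogs thus moved in opposite directions in each clone, and the ratio of ZNRF3 to RNF43 was 0.375, 0.258 and 0.439. Exons of other annotated genes cover 73.9% of the merged exons of RNF43. Among them is SUPT4H1 on the same strand, a transcription elongation factor gene with 60.5, 52.7 and 71.8 FPKM. How reads in the shared part were assigned is not given in the sources used here, so the RNF43 values are uncertain.

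NOTUM (ENSG00000185269, chromosome 17), a secreted enzyme that inactivates Wnt ligands, was at 0.523 FPKM in control cells, 0.0931 in clone 1 and 0.201 in clone 2. Behind them were 75, 10 and 29 reads. The values of both clones lay below that of the control, at 0.178 times (0.0819 to 0.345) and 0.385 times (0.241 to 0.598). On the log2(FPKM + 1) scale the mean difference was -0.41, and without a pseudocount it was -1.94. NOTUM did not pass the filter, and it was not part of the fit. The other 4 feedback genes had a median log2 difference from the control of -0.27 in clone 1 and 0.19 in clone 2.

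The further lists of Wnt pathway and MYC genes held 119 genes past the filter. Among them, the 3 with log2 differences nearest to those of AXIN2 were FZD2, CCND1 and SP5. The distance, taken over the differences of both clones from the control, was 0.10, 0.15 and 0.21. FZD2, a Wnt receptor, was at 2.29 FPKM in control cells, 0.971 in clone 1 and 2.80 in clone 2. CCND1, which encodes cyclin D1, was at 72.9, 50.6 and 89.5 FPKM. SP5, a transcription factor gene induced by beta-catenin, was at 3.92, 2.56 and 4.67 FPKM. All were lowest in clone 1 and highest in clone 2, which follows from their choice by nearness to AXIN2. With 3 libraries, likeness cannot be measured any further. Only these lists were searched, and genes outside them lay about as near to AXIN2, which was at -0.66 in clone 1 and 0.27 in clone 2. TOMM34 was at -0.57 and 0.26, and R3HDM1 at -0.56 and 0.24, so such nearness is not particular to the lists.

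The stretches of 250 bases before the annotated start of SP5 and of CTNNB1 are printed below. They set a gene with the AXIN2 order and TCF/LEF motifs beside the gene that encodes beta-catenin. CTNNB1 had the same order without such a match, and whether motifs and order are related was not tested. No such sequence was available here for AXIN2, FZD2 or CCND1, so among the genes nearest to AXIN2 only SP5 could be searched. The motifs CTTTGAT and CTTTGAA, the letters that TCF/LEF factors recognise, were searched on both strands, and capitals mark each match, read on the strand of the gene. The sequences come from RefSeq on GRCh38.p14, both on the plus strand. SP5 is at chr2:170715087-170715336 and CTNNB1 at chr3:41199255-41199504.
SP5: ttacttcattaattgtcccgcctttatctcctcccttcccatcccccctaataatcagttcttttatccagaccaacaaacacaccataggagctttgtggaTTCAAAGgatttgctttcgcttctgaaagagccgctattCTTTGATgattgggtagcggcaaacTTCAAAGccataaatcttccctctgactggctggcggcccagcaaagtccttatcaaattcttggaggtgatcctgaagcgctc
CTNNB1: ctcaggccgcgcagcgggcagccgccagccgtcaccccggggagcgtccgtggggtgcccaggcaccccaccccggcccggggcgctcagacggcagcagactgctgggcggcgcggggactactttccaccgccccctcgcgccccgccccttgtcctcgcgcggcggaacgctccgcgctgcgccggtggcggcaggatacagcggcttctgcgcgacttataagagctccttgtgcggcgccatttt

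SP5 held 3 matches, whose first bases lie at -148, -109 and -84 from the start. In windows that run from 250 bases before to 50 after a start, 6.86% of all 35116 windows held at least 1 match, and 9 windows, or 0.0256%, held 3 or more, a number chosen after the SP5 matches were seen. Of the 10 genes described, 5 had such windows, namely CTNNB1, APC, AXIN1, GSK3B and RNF43. Their 7 windows held no match, which says only that these letters are not in these windows.

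MYC (ENSG00000136997, chromosome 8), a transcription factor that drives growth and ribosome production, was lower in clone 1 alone. It was at 63.8 FPKM in control cells, 50.1 in clone 1 and 64.2 in clone 2. Clone 1 was 0.785 times the control (0.758 to 0.812), and the interval of clone 2 included 1 (1.00, 0.976 to 1.03). Like CTNNB1, MYC was lower in clone 1, but it had no rise of like size in clone 2. There the ratio of CTNNB1 to MYC was 0.995 against 0.650 in control cells. Whether the level of MYC depended on that of CTNNB1 was not tested.

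Of 25 MYC target genes, 24 passed the filter, and 18 of these were below the control in both clones, against 27.7% of all genes past the filter. Scaling by the median ratio gave 19 genes against 30.9%, and scaling to TPM gave 16 against 19.8%. Their median log2 difference was -0.22 in clone 1 and -0.24 in clone 2, so they did not share the difference in MYC between the clones. No gene of the list passed the fit or differed 2-fold in either clone on the log2(FPKM + 1) scale, which understates the folds of genes at low levels. The most abundant, NPM1, a nucleolar protein gene, was at 651 FPKM in control cells, 584 in clone 1 and 680 in clone 2. Of 12 genes of the MYC network past the filter, MXD1, which encodes an antagonist of MYC, reached 2-fold. It was at 3.32 FPKM in control cells, 8.28 in clone 1 and 5.47 in clone 2, above the control in both clones. MLX, the most abundant of the network, was at 14.0, 15.6 and 14.8 FPKM.

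By FPKM, AXIN2, MYC and CTNNB1 were the 3 most abundant of the 10 genes in every library, and RNF43 was the fourth. AXIN1 followed, then GSK3B and ZNRF3 at like levels, while APC and NKD1 lay between 1.28 and 2.28 FPKM and NOTUM was last. For most genes, low FPKM values became whole reads with the length of all merged exons. This length is 11927 nt for CTNNB1 with its 56 annotated transcripts and 5226 nt for AXIN2. Reads of CTNNB1, GSK3B and NKD1 did not come out whole, so the length behind their FPKM is uncertain. The longest coding transcript with a RefSeq match has 3472 nt for CTNNB1 and 4259 nt for AXIN2. If FPKM used the merged length, dividing by that transcript instead made CTNNB1 the most abundant in all 3 libraries. The order of levels between these genes therefore depends on the length used, whereas a fold of 1 gene between libraries does not.

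Across the 10 genes, the control lay between the clones in 7. CTNNB1, AXIN2, NKD1, ZNRF3 and MYC were lowest in clone 1 and highest in clone 2, and APC and RNF43 the reverse. Only MYC among the first 5 differed from the control in clone 2 by less than the counting error. Among all genes past the filter, 39.9% had the control between the clones, 16.1% with clone 2 highest and 23.9% with clone 1 highest. With median scaling these shares were 19.8% and 19.2%, and the order of each of the 10 genes was as given. The other 3 genes had the control outside the clones, below them for GSK3B and above them for AXIN1 and NOTUM.

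Counting intervals separate most genes of such depth. Among all genes past the filter with recovered reads, the interval of clone 1 against the control excluded 1 for 65.0% (26.7% lower), that of clone 2 for 70.3% (34.2% higher), and that between the clones for 70.4% (28.3% higher in clone 2). Of the 9 genes past the filter, it did so for 9 in clone 1, 6 of them lower, and for 7 in clone 2, 5 of them higher. Between the clones it did so for all 9, 7 of them higher in clone 2. The clone 1 library was the shallowest of the 3. None of the 9 genes past the filter changed at least 2-fold the same way in both clones, against 0.325% of all genes past the filter (0.206% lower in both). In neither clone did any of them reach 2-fold from the control, which 1.06% of all genes did upward in clone 1 and 0.959% downward, and 1.33% and 0.737% did in clone 2. At 1.5-fold, AXIN2 was lower in clone 1, as 2.71% of all genes were, and CTNNB1 was higher in clone 2, as 4.77% were. None passed an adjusted p of 0.05 in limma, and 0% of all genes did, while 1.19% had an unadjusted p under 0.05. The smallest unadjusted p among the 9 genes, for GSK3B, was 0.268 in limma.

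**Figure D3:**
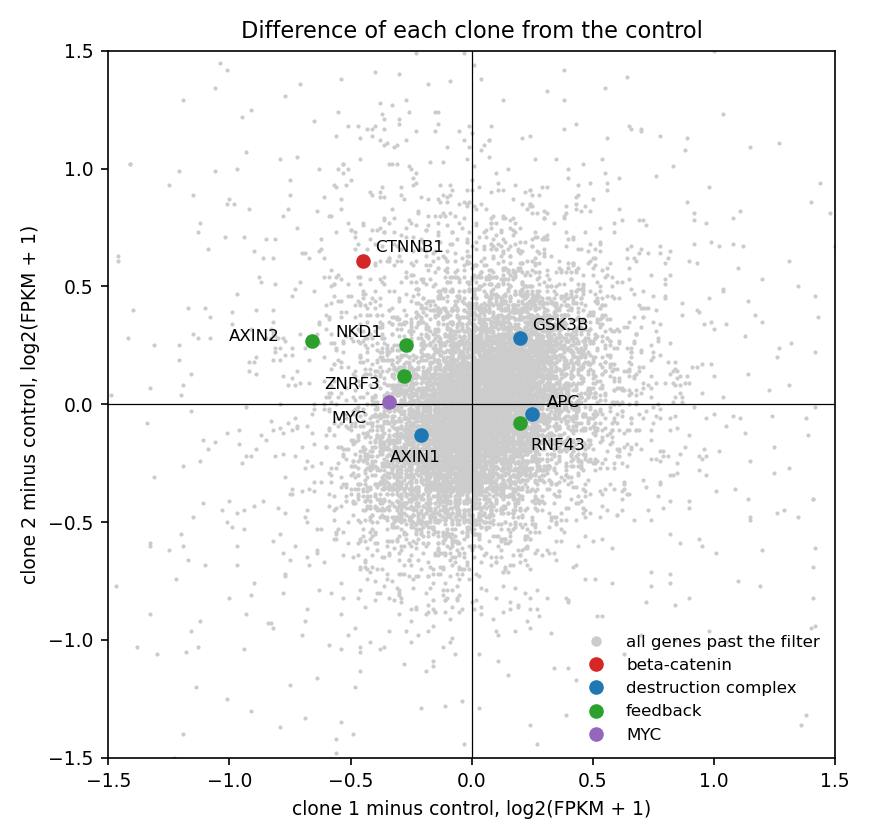
Difference of clone 1 (horizontal) and clone 2 (vertical) from DLD1 control cells in log2(FPKM + 1) for the 11675 genes past the filter (grey) and the 9 described genes among them (coloured by role). Of all genes, 125 lie outside the axes. CTNNB1, AXIN2, NKD1 and ZNRF3 lie in the upper left quadrant, lower in clone 1 and higher in clone 2, with MYC at its edge.

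The remaining Wnt pathway genes, with the MYC network and MYC target genes above, came to 172 other genes in lists ordered by role. None passed the fit at an adjusted p of 0.05 in limma, 1 had an unadjusted p under 0.05, and none changed 2-fold the same way in both clones. Of 119 genes past the filter, 33 had the order of CTNNB1 and 18 the reverse, against 16.1% and 23.9% of all genes, while 37 were above the control in both clones and 31 below. At least 2-fold higher values in clone 2 than in clone 1 were found in 10 of them and lower ones in 2, against 2.51% higher and 1.68% lower among all genes past the filter. Of the 31 below the control in both clones, 18 were MYC target genes and 2 were of the MYC network. Of the 33 with the order of CTNNB1, 3 were MYC target genes and 2 were of the MYC network.

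Of 21 genes for Wnt ligands and their secretion, 7 passed the filter and 4 were listed at 0 in all libraries. WNT10A, a ligand, was at 0.933 FPKM in control cells, 0.255 in clone 1 and 2.13 in clone 2, that is 151, 31 and 347 reads. The ligand gene WNT5A did not pass the filter, although it was at 0.246, 0.377 and 2.13 FPKM, that is 86, 99 and 752 reads. WLS, which carries ligands to the cell surface, was the most abundant, at 13.0, 13.5 and 21.3 FPKM. Of 15 receptor genes 8 passed the filter, none of which reached 2-fold on the log2(FPKM + 1) scale, although FZD5 and FZD2 at low levels came near, the one highest in clone 1 and the other in clone 2. FZD5 was at 1.31, 2.92 and 0.962 FPKM. The most abundant receptor gene was the co-receptor LRP5 at 15.5, 18.8 and 16.3 FPKM.

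Of 7 genes of the R-spondin system, which protects Frizzled receptors from ZNRF3 and RNF43, the 3 LGR receptors passed the filter. RSPO1, RSPO2 and RSPO3 were listed at 0 in all libraries. LGR5, a receptor and intestinal stem cell marker, was at 7.51 FPKM in control cells, with 15.5 in clone 1 and 6.25 in clone 2, the order of RNF43 and the reverse of AXIN2. Of 15 secreted or membrane inhibitors 4 passed the filter. KREMEN2, a co-receptor of DKK inhibitors, was at 3.05, 1.29 and 5.21 FPKM, lowest in clone 1 and highest in clone 2, and its relative KREMEN1 at 6.05, 5.06 and 8.01.

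The other degradation genes lay within the narrowest range of difference between the clones among these lists. Of 15 genes, which include GSK3A, casein kinase 1 alpha and the ubiquitin ligase adaptor BTRC, 13 passed the filter and none differed 1.5-fold between the clones. Of all genes past the filter 12.4% did, and in the junction and MYC target lists none did either. The median log2 difference of the 13 genes was 0.07 in clone 1 and 0.06 in clone 2, beside 0.04 and -0.01 over all genes. The most abundant, the phosphatase gene PPP2CA, was at 34.2, 35.6 and 31.5 FPKM. Of 14 upstream cytoplasmic regulators 12 passed the filter. DACT1, which binds Dishevelled, was at 0.535 FPKM in control cells, 0.501 in clone 1 and 3.30 in clone 2. It was high in clone 2 alone, and the most abundant, the casein kinase gene CSNK1G2, was at 29.8, 26.9 and 33.6 FPKM.

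Of 17 nuclear partners 14 passed the filter, 7 with the order of CTNNB1 and 1 with the reverse, against 16.1% and 23.9% of all genes. The other 6 were above the control in both clones. LEF1, which binds beta-catenin on DNA, was at 12.8 FPKM in control cells, 6.54 in clone 1 and 18.8 in clone 2. TLE1, a co-repressor, was at 5.79, 4.42 and 11.1 FPKM, also lowest in clone 1 and highest in clone 2. PYGO2, a co-activator gene and the most abundant of the list, was at 14.4, 13.5 and 15.5 FPKM.

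Of 7 genes that act with beta-catenin at the cell junction 5 passed the filter, and 4 were above the control in both clones under each scaling, against 32.4% of all genes, or 30.2% with median scaling and 41.2% with TPM scaling. The most abundant, JUP, which encodes the beta-catenin relative plakoglobin, was at 58.9 FPKM in control cells, with 66.8 in clone 1 and 86.9 in clone 2. The others above the control were CDH1, CTNNA1 and CTNND1, which encode E-cadherin and catenins, and none of the 5 passed the fit.

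Of 28 further Wnt target genes 21 passed the filter, 8 with the order of CTNNB1 and 4 with the reverse, against 16.1% and 23.9% of all genes, while 3 were above the control in both clones and 6 below. At least 2-fold higher values in clone 2 than in clone 1 were found in 6 of them and lower ones in 2, against 2.51% and 1.68% of all genes. The median log2 difference from the control came to -0.34 in clone 1 and 0.14 in clone 2. This list overlaps those above, as LEF1 and TCF7 were also counted among the nuclear partners. LGR5 was also counted in the R-spondin system and APCDD1 among the inhibitors. SOX4, a transcription factor gene, was at 10.9 FPKM in control cells, 7.26 in clone 1 and 23.3 in clone 2. BAMBI, a pseudoreceptor of the TGF-beta family, was at 10.8, 6.63 and 17.5 FPKM. Both were lowest in clone 1 and highest in clone 2. BMP4, a secreted growth factor gene and the most abundant, was at 216 FPKM in control cells, 96.1 in clone 1 and 211 in clone 2, so like MYC it was low in clone 1 alone. Target genes therefore did not move as 1 group, since SOX4, LEF1 and BAMBI had the order of AXIN2 and LGR5 the order of RNF43.

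**Figure D4:**
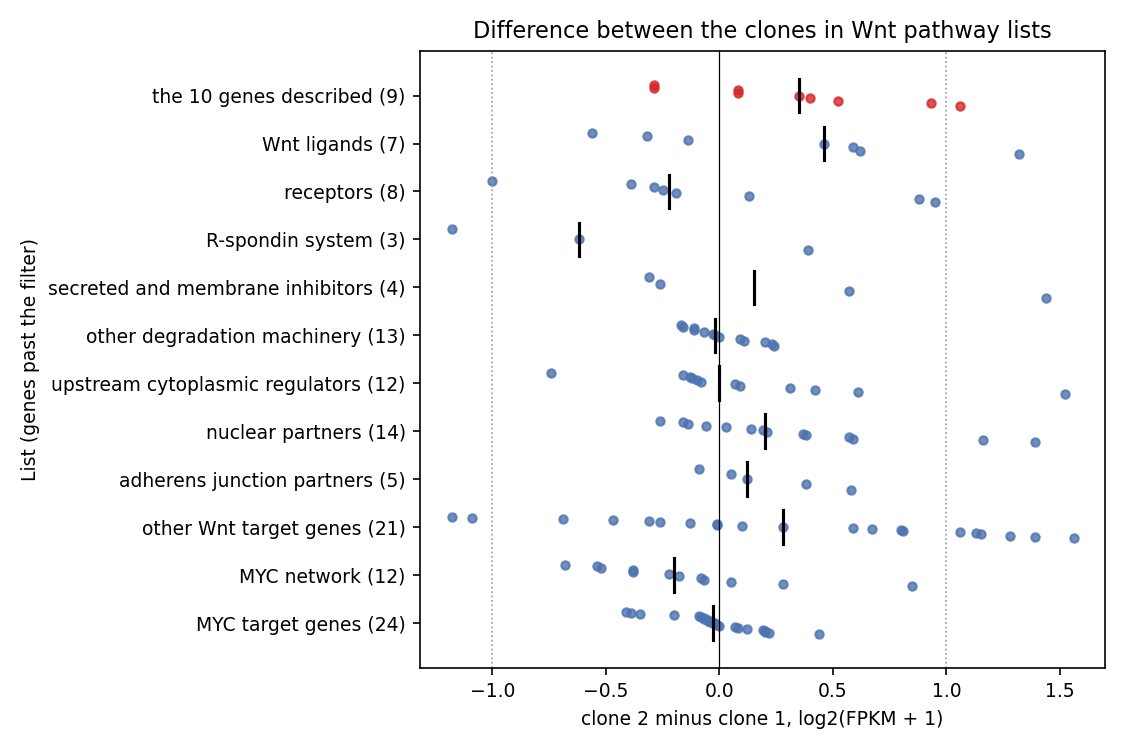
Difference between clone 2 and clone 1 in log2(FPKM + 1) for each gene past the filter (points). Rows are the 10 genes described and 11 lists of Wnt pathway and MYC genes. Black bars mark the median of each list and dotted lines mark 2-fold differences. CTNNB1 is the point of the first row past the right dotted line, and the other degradation genes lie within the narrowest range.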

How the data were processed

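DLD1 control cells (1 library) and 2 BEX2-/- clones (1 library each) were compared. The authors made TruSeq libraries and deposited FPKM values per gene, 1 column per library, and the submitters' processing notes name Trim Galore 0.3.7, STAR 2.5, Cufflinks 2.2.1, DESeq 1.22.1 and hg19. The annotation is not given in the sources used here. Gene symbols, chromosomes and exon lengths were taken from GENCODE release 29 (GRCh38), where 56996 identifiers were found and 3508 were not. With these lengths, between 98.7% and 98.8% of low values of single-transcript genes and between 87.8% and 88.3% of others became whole reads within 0.02. For CTNNB1, GSK3B and NKD1 they did not, and rounded reads were used.

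Differences were taken as log2(FPKM + 1). The fit was limma 3.58.1 (R 4.3.3) with a mean-variance trend, 1 residual degree of freedom and Benjamini-Hochberg adjustment over all 11675 genes with a mean of at least 1 FPKM. DESeq needs counts and was not run. P-values measure only the spread between these samples. Fold intervals are 95% Clopper-Pearson limits, and a count of 0 allows up to 3 reads. The genes named from each list were the most abundant one and those at least 2-fold apart between any 2 libraries on the log2 scale, at most the 4 with the widest range, plus the 3 nearest to AXIN2. VIL1, SUPT4H1 and the other genes outside that rule were named after their values were seen. The members and lists were chosen with earlier results of these data known, and the lists were written from general knowledge. The fit and the recovery of depth were run on simulated data in which changed genes shifted alike in both clones. That setting was simpler than these data, so it does not show how the fit performs here. The counting intervals were not part of it. The other software was scipy 1.17.1, matplotlib 3.10.9, pandas 2.3.3 and numpy 2.4.6 under Python 3.11.15.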

Additional observations from a re-analysis of the deposited data

How the results depend on the processing

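No paired analysis was possible because the control is a single library. No alternative brought a gene past an adjusted p of 0.05 in limma, and limma-voom on recovered reads, chosen after the data were seen, gave 0 genes, with 102 of 11598 at an unadjusted p under 0.05. Genes changed at least 2-fold the same way in both clones numbered 38, and 88 with a pseudocount of 0.1 FPKM, 6 with a mean of at least 5 FPKM, 72 with TPM scaling, 137 at a 1.5-fold threshold and 85 without a pseudocount. With 1 clone left out, 236 to 241 genes reached 2-fold in the remaining clone, a count that requires no agreement between clones. Genes differing at least 2-fold between the clones numbered 489, and 863, 222, 763, 1444 and 893 under the same settings. The mean log2 difference of CTNNB1 from the control was 0.08, and leaving out 1 clone gave -0.45 to 0.61. Leaving out 1 clone gave -0.04 to 0.25 for APC, -0.66 to 0.27 for AXIN2, -0.27 to 0.25 for NKD1, -0.28 to 0.12 for ZNRF3, -0.08 to 0.20 for RNF43 and -0.34 to 0.01 for MYC, since the clones lie on opposite sides of the control, and TPM scaling turned NKD1 to 0.03 from -0.01. The difference of NOTUM moved from -0.41 to -1.37 with a pseudocount of 0.1 FPKM, to -0.91 with TPM scaling and to -1.94 without a pseudocount. The median of the destruction complex genes was 0.10 and gave -0.04 to 0.20 when 1 clone was left out, and that of the feedback genes was -0.04 and gave -0.27 to 0.19. Having 1 control library and 2 clones limits every comparison, and depth limits NOTUM most, with 10 reads in clone 1.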
